A study of Mus musculus with 9 samples.

Results

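Lysosomal cathepsins and legumain are the proteases that degrade protein inside the lysosome, the acidic compartment of the cell. The 10 genes described here are a list of names chosen with earlier results of these data known: Ctsa, Ctsb, Ctsc, Ctsd, Ctsf, Ctsh, Ctsk, Ctso, Ctsz and Lgmn. On the array, 22 of the 34945 probe sets annotated to a single gene symbol belonged to these 10 of 18193 genes. They were measured in thymus cells of female C57BL/6J mice, for which the labels give an age of 6 to 8 and a unit written wo, read as weeks old. The cells had been depleted of CD45-positive blood cells with magnetic beads, and each sample was a pool from several mice. The label on pooling calls the pooled cells thymic ECs, an abbreviation it does not explain, so which cells were arrayed is known only as far as the depletion and the markers below show. There were 3 groups of 3 arrays: untreated mice, mice harvested at day 4 and mice harvested at day 7 after SL-TBI of 550 cGy from a cesium source, read as sublethal total body irradiation and given without a blood cell graft. The 3 groups share strain, sex, age and depletion, and no label names a transgene. Nothing in the labels tells separate pools from repeats of one pool, so p-values measure only the spread between these samples, which may be technical.

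The arrays were Affymetrix mouse arrays, and every level below is a log2 value made by the authors with GCRMA. Between 42.1% and 44.2% of the probe sets of an array read at least 4, the level treated as detected, and the lowest value of the table was 2.27. The label describes non-hematopoietic stroma, yet Ptprc, the gene of CD45, averaged 12.22 in untreated, 4.64 at day 4 and 9.51 at day 7. A list of 15 thymocyte genes had array means from 9.25 to 9.58 in untreated, 3.24 to 3.55 at day 4 and 6.66 to 6.79 at day 7. Cortical epithelial and fibroblast lists were well detected, at 11.49 to 12.26 and 9.75 to 11.41 over all arrays. Of 14 macrophage markers 7 lay below 4 on every array (Adgre1, Cd163, C1qa, C1qc, Fcgr1, Timd4 and Vsig4). With these included, that list had array means from 3.99 to 4.48 in untreated, 4.01 to 4.07 at day 4 and 3.87 to 3.91 at day 7. Its brightest genes were detected. Lyz2 averaged 9.84 in untreated, 9.02 at day 4 and 7.76 at day 7, and C1qb 6.485, 5.68 and 5.555. The tested macrophage markers moved in both directions, with counts given below. The 3-prime minus 5-prime value of the Actb control probe sets, a sign of RNA quality, was 2.16 to 2.45 in untreated, 3.01 to 3.32 at day 4 and 2.303 to 2.71 at day 7. It is higher where less 5-prime signal is left. For Gapdh it was 0.80 to 1.04 in untreated, 1.13 to 1.61 at day 4 and 0.68 to 1.10 at day 7. Every day 4 array was above all others for both controls, so RNA quality and the day 4 group cannot be told apart. Bulk arrays cannot tell apart a change in the number of cells of a type and a change in the RNA per cell.

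Most cathepsins are cysteine proteases of the papain family, made as inactive precursors that are cleaved to the active enzyme at low pH. Ctsd encodes an aspartic protease and Ctsa a serine carboxypeptidase, while legumain is a separate cysteine protease that cuts after asparagine. In the thymus, lysosomal proteases of epithelial and dendritic cells generate the peptides and the class II complexes that developing T cells are tested on, and in fibroblasts they degrade matrix that has been taken up.

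Promoters are shown because many lysosomal genes are known to share an E-box that TFEB, TFE3 and MITF can bind. The RefSeq table (GRCm38.p6) gave 10 windows from 250 bases before to 50 bases after an annotated start, for 8 of the genes, Ctsb and Ctsh being the other two. The motif CACGTG, which reads the same on both strands, lay in windows of 4 of these 8 genes (Ctsa, Ctsd, Ctsf and Lgmn), against 8.09% of the 27025 genes in the table. With T before and A after it, a form that overlaps the first motif, it lay in windows of 2 of the 8 genes, Ctsa and Ctsd, against 1.13% of all genes. The windows below run 5′ to 3′ along the gene's strand with CACGTG in capitals. They are the Ctsa window at chr2:164833523-164833822 (plus strand), the Ctsd window at chr7:142387778-142388077 (minus strand) and the Ctsf window at chr19:4854915-4855214 (plus strand).
Ctsa: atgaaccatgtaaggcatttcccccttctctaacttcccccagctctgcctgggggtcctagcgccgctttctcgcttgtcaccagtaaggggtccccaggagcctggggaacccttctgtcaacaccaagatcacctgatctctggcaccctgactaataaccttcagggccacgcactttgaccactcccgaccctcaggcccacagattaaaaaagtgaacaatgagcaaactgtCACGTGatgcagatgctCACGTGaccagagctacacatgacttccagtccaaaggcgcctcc
Ctsd: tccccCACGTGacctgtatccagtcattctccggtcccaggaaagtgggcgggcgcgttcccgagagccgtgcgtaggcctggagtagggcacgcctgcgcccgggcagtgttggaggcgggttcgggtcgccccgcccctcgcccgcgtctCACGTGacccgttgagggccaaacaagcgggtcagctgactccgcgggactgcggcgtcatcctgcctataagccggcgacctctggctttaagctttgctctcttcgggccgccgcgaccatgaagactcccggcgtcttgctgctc
Ctsf: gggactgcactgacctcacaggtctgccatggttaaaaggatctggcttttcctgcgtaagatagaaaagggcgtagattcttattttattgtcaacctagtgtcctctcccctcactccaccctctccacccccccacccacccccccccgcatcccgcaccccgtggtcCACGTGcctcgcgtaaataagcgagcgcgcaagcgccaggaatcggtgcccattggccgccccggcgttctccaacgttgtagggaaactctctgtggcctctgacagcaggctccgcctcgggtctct
Counting the annotated start as 0, the first base of the motif lay at -12 and 5 in Ctsa, at -245 and -98 in Ctsd and at -79 in Ctsf. A second Ctsa window, at chr2:164832622-164832921, held no match and is the one at the gene's outermost annotated start. The Lgmn match lay in the window at chr12:102439043-102439342 (minus strand). The window at the outermost annotated start of Lgmn, chr12:102439679-102439978, held none. No window of Ctsc, Ctsk, Ctso or Ctsz held a match. A match describes these letters and is not a site of binding. The part of the motif in the array differences was not tested.

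The comparison of day 4 with untreated asked which proteases differed early after damage. Of the 10 genes 7 rose at day 4 (limma, adjusted p under 0.05) and 0 fell (1, Ctsc, at an unadjusted p under 0.05), while Ctsc, Ctsh and Ctsz passed in neither direction. Ctsk and Ctsf rose most, by 7.78-fold and 5.005-fold, followed by Lgmn at 2.71-fold and Ctsb at 1.99-fold. Over all 10937 genes tested, 63.2% were called in this comparison, 41.8% higher and 21.4% lower, with a median difference of 0.196, against a median of 0.55 for the 10 genes. Day 7 against untreated is the later comparison, and there 5 of the 10 genes were higher and 3 were lower, against 54.1% of all genes called, 32.1% higher and 22% lower, and medians of 0.22 for the 10 genes and 0.09 for all genes. The 10 genes were chosen with earlier results of these data known, so these counts describe the list and are no independent test. Ctss, Ctse and Ctsl, given below, are not among the 10. Both comparisons share the untreated arrays. These directions are those of the values as deposited: of the 7 genes that rose at day 4, Ctsk, Ctsf and Lgmn kept their sign under each of 4 other scalings of the arrays, whereas Ctsb, Ctso, Ctsa and Ctsd turned below 0 under at least 1 of them. Between day 7 and day 4, 4 of the 10 genes were lower and 0 higher, against 27.3% of all genes called, 17.6% lower and 9.78% higher. At an unadjusted p under 0.05 for day 7 against day 4, 0 of the 10 genes were higher as well.

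**Figure D1:**
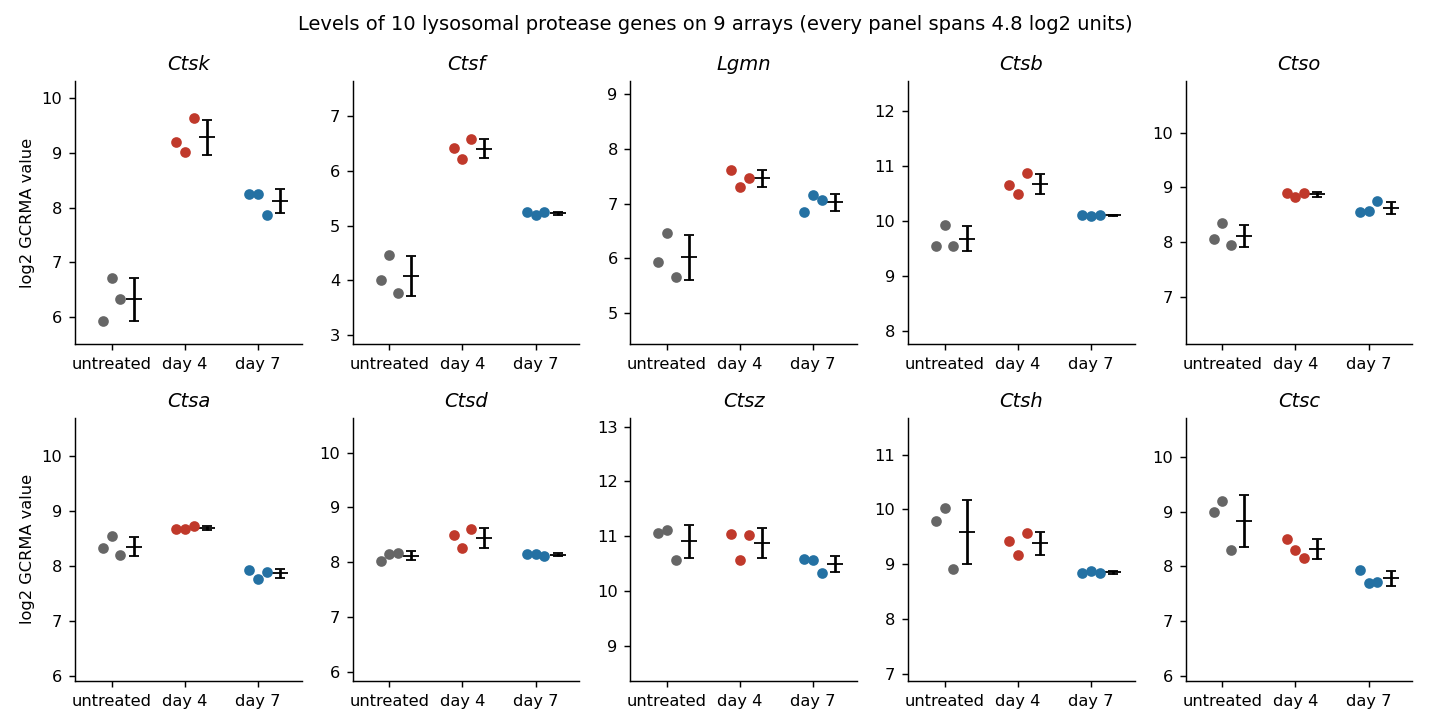
Log2 GCRMA values of the 10 genes on each of 9 arrays (points) with the mean and SD of 3 arrays (bars) for untreated, day 4 and day 7. Ctsk, Ctsf, Lgmn, Ctsb and Ctso have their highest group at day 4 with day 7 between day 4 and untreated, and Ctsc, Ctsh and Ctsz have their lowest group at day 7.

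Ctsk encodes cathepsin K, a collagen-degrading cysteine protease known from osteoclasts and also made by fibroblasts. It read 5.93, 6.72 and 6.33 in untreated, 9.20, 9.02 and 9.64 at day 4, and 8.24, 8.24 and 7.86 at day 7. The 3 groups did not overlap, with every day 4 array above every day 7 array and every day 7 array above every untreated one. The difference at day 4 was 2.96 (SE 0.22, adjusted p 9e-06), and only 0.137% of tested genes had a larger one. At day 7 it was 1.79 (3.46-fold, SE 0.22, adjusted p 0.00028). At day 7 Ctsk was lower than at day 4, with a difference of -1.17 (SE 0.22, adjusted p 0.00644).

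Ctsf encodes cathepsin F, a papain-family protease with an unusually long propeptide. It read 4.00, 4.47 and 3.77 in untreated, 6.42, 6.22 and 6.58 at day 4, and 5.24, 5.18 and 5.24 at day 7. One untreated array lay below the detection level of 4 and another at it, so the untreated level was close to the limit of the array. The groups again did not overlap, in the same order as for Ctsk. Ctsf rose by 2.32 at day 4 (SE 0.17, adjusted p 7.25e-06), with 0.722% of tested genes above it, and by 1.14 at day 7 (2.20-fold, SE 0.17, adjusted p 0.000662). Day 7 was lower than day 4 by a difference of -1.18 (SE 0.17, adjusted p 0.00187). A second Ctsf probe set stayed at the lowest value of the table on all arrays and gave no measurement.

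Lgmn encodes legumain, which also trims other cathepsins to their mature forms. It read 5.94, 6.46 and 5.66 in untreated, 7.62, 7.30 and 7.46 at day 4, and 6.85, 7.15 and 7.06 at day 7. Every irradiated array lay above every untreated array, and the day 7 arrays lay below the day 4 arrays. Lgmn rose by 1.44 at day 4 (SE 0.19, adjusted p 0.000219) and by 1.004 at day 7 (2.01-fold, SE 0.19, adjusted p 0.00237). The difference between day 7 and day 4 was -0.44 and did not pass (SE 0.19, adjusted p 0.123). After centring on 4 stromal lists neither Lgmn nor Ctsf passed at day 7, with differences of 0.012 (adjusted p 0.961) and 0.15 (adjusted p 0.518), and after centring on the fibroblast list they gave 0.28 (adjusted p 0.355) and 0.42 (adjusted p 0.153).

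Ctsb encodes cathepsin B, which cuts both within proteins and from their carboxyl end. Its kept probe set read 9.55, 9.94 and 9.55 in untreated, 10.65, 10.495 and 10.87 at day 4, and 10.12, 10.10 and 10.11 at day 7. The groups were separate, and the day 7 arrays were nearly identical (SD 0.0088). Ctsb rose by 0.99 at day 4 (SE 0.13, adjusted p 0.000218), and 4 of its 5 probe sets were bright enough to test, with day 4 differences of 0.99, 1.78, 1.501 and 1.03. At day 7 it was higher by 0.43 (1.34-fold, SE 0.13, adjusted p 0.0237), and lower than at day 4 by a difference of -0.57 (SE 0.13, adjusted p 0.0145). The other 3 bright Ctsb probe sets differed by 1.26 (adjusted p 0.00119), 1.02 (adjusted p 0.00108) and 0.46 (adjusted p 0.0818) at day 7. For day 7 against day 4 they gave -0.52, -0.48 and -0.57, none past the threshold (adjusted p 0.106, 0.0685 and 0.0705). For the kept probe set, the day 7 call was lost when any of 5 arrays was left out, with differences of 0.36 (adjusted p 0.0832) without untreated replicate 1, 0.36 (adjusted p 0.0694) without untreated replicate 3, and 0.42 to 0.43 (adjusted p 0.0577 to 0.0602) without any day 7 array.

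Ctso encodes cathepsin O, a widely expressed papain-family protease. It read 8.07, 8.35 and 7.94 in untreated, 8.91, 8.82 and 8.90 at day 4, and 8.56, 8.58 and 8.75 at day 7, again with groups that did not overlap. It rose by 0.76 at day 4 (1.69-fold, SE 0.12, adjusted p 0.000461) and by 0.51 at day 7 (1.43-fold, SE 0.12, adjusted p 0.0053). Day 7 and day 4 differed by -0.25, which did not pass (SE 0.12, adjusted p 0.142).

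Ctsa and Ctsd rose less, and neither stayed higher. Ctsa encodes cathepsin A, also called protective protein, which stabilises the sialidase NEU1 and the galactosidase GLB1 in a complex. Ctsa read 8.32, 8.55 and 8.19 in untreated, 8.68, 8.67 and 8.73 at day 4, and 7.93, 7.77 and 7.89 at day 7. Its order was unlike that of the genes above, since the day 7 arrays lay below all untreated arrays. The differences were 0.34 at day 4 (1.27-fold, SE 0.10, adjusted p 0.0187), -0.49 at day 7 (SE 0.10, adjusted p 0.00412) and -0.83 for day 7 against day 4 (SE 0.10, adjusted p 0.000993). Ctsd encodes cathepsin D, the main aspartic protease of lysosomes. It read 8.03, 8.15 and 8.17 in untreated, 8.49, 8.25 and 8.60 at day 4, and 8.15, 8.15 and 8.11 at day 7. Its day 4 arrays lay above the other two groups, which overlapped, and the differences were 0.33 at day 4 (1.26-fold, SE 0.10, adjusted p 0.0209) and 0.02 at day 7 (SE 0.10, adjusted p 0.886). Against day 4, day 7 differed by -0.31 (SE 0.10, adjusted p 0.0551).

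Whether the small rises of Ctsa and Ctsd at day 4 were called depended on the arrays fitted and on the scaling. With 1 array left out, the differences themselves stayed at 0.26 to 0.44 for Ctsa and 0.25 to 0.43 for Ctsd. Ctsa no longer passed without untreated replicate 1 (0.32, adjusted p 0.0547), untreated replicate 3 (0.26, adjusted p 0.0552) or day 4 replicate 3 (0.32, adjusted p 0.0528). Ctsd no longer passed without untreated replicate 1 (0.29, adjusted p 0.0721), day 4 replicate 1 (0.31, adjusted p 0.0644) or day 4 replicate 3 (0.25, adjusted p 0.0734), and in a fit of the compared groups alone (0.33, adjusted p 0.0511). Neither passed after centring on the kept genes (Ctsa 0.23, adjusted p 0.0569, and Ctsd 0.22, adjusted p 0.113) or on the epithelium list (Ctsa 0.097, adjusted p 0.719, and Ctsd 0.087, adjusted p 0.785). Ctsa also did not pass with the mean of all its probe sets (0.17, adjusted p 0.0539). Its other probe set stayed at the lowest value of the table on all arrays. That average thus shrinks the difference by construction and cannot show how firm the rise is.

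Ctsc and Ctsh were lower at day 7. Ctsc encodes cathepsin C, a dipeptidyl peptidase that activates the serine proteases of granules in T cells, neutrophils and mast cells. It read 8.998, 9.19 and 8.30 in untreated, 8.51, 8.30 and 8.15 at day 4, and 7.94, 7.70 and 7.71 at day 7. All day 7 arrays lay below all others, whereas untreated replicate 3 lay within the day 4 range. Ctsc fell by 1.04 at day 7 (2.06-fold, SE 0.21, adjusted p 0.00328), while the difference at day 4 was -0.51 (SE 0.21, adjusted p 0.0616) and that of day 7 against day 4 was -0.53 (SE 0.21, adjusted p 0.0956). Ctsh encodes cathepsin H, mainly an aminopeptidase. It read 9.80, 10.03 and 8.92 in untreated, 9.42, 9.16 and 9.57 at day 4, and 8.83, 8.88 and 8.84 at day 7. Its day 7 arrays lay just below untreated replicate 3, and its untreated spread was the widest of the 10 genes (SD 0.59). Ctsh differed by -0.73 at day 7 (1.66-fold, SE 0.25, adjusted p 0.0343) and by -0.20 at day 4 (SE 0.25, adjusted p 0.51). Both genes had a second bright probe set that was called lower for day 7 against day 4, with differences of -0.73 for Ctsc (adjusted p 0.0428) and -0.87 for Ctsh (adjusted p 0.0466), while the kept Ctsh probe set gave -0.53 (adjusted p 0.143). At day 7 Ctsh no longer passed without untreated replicate 1 (-0.63, adjusted p 0.11), untreated replicate 2 (-0.51, adjusted p 0.0993) or any day 7 array (-0.75 to -0.73, adjusted p 0.0746 to 0.0801).

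Ctsz encodes cathepsin X, also called Z, which removes single residues from the carboxyl end. It read 11.05, 11.11 and 10.57 in untreated, 11.04, 10.56 and 11.03 at day 4, and 10.58, 10.57 and 10.33 at day 7, and all pairs of groups overlapped. None of its differences passed: -0.03 at day 4 (SE 0.18, adjusted p 0.885), -0.42 at day 7 (SE 0.18, adjusted p 0.0781) and -0.38 for day 7 against day 4 (SE 0.18, adjusted p 0.142). Its other two probe sets gave -0.31 and -0.37 at day 7, neither past the threshold.

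Untreated replicate 3 had the lowest untreated value of Ctsc, Ctsh and Ctsz, as also of Ctsa, Ctsf, Ctso and Lgmn. In the same array the medullary epithelial list averaged 7.26, against 8.44 and 8.53 in the other untreated arrays, and the neutrophil list 6.25 against 7.05 and 8.09. The macrophage list, at 3.99 against 4.37 and 4.48, and the general epithelial list, at 9.05 against 9.42 and 9.75, were lowest there too. So were the B cell and dendritic lists. The endothelial list stood apart upward there, at 5.67 against 4.05 and 4.37. Cortical epithelial, mesothelial and pericyte and smooth muscle lists were also highest in that array among the untreated. The part of these in the protease values was not tested. Without that array Ctsc and Ctsh were called lower at day 4 (-0.78, adjusted p 0.00158, and -0.53, adjusted p 0.00949), and Ctsz was called lower at day 7 (-0.59, adjusted p 0.0165). Leaving out that array also brought Ctsc and Ctsh past the threshold for day 7 against day 4 (-0.53 each, adjusted p 0.0133 and 0.0122).

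**Figure D2:**
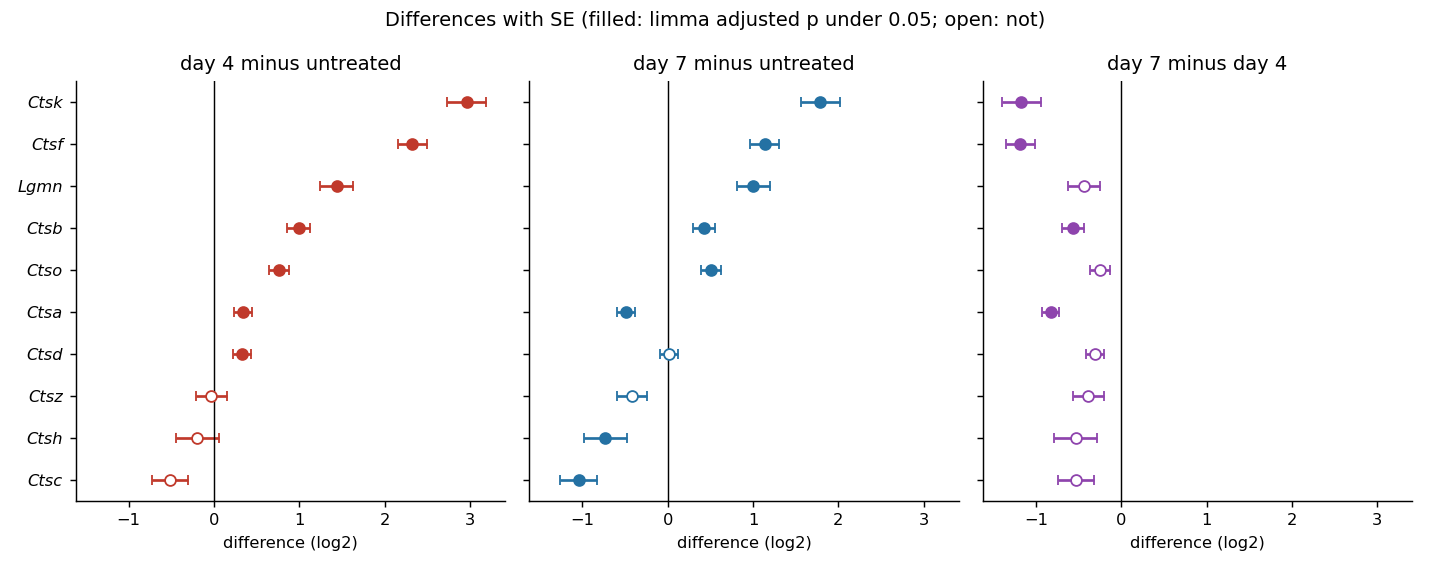
Differences in log2 value with SE for the 10 genes in the 3 comparisons, filled where the limma adjusted p was under 0.05. The rises at day 4 run up to 2.96 for Ctsk, and for day 7 against day 4 all 10 differences are below 0, with 4 filled.

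Groups did not overlap for 7 of the 10 genes at day 4 against untreated, 8 at day 7 against untreated and 9 at day 7 against day 4. Over all tested genes this held for 67.7%, 62.4% and 51.7%. Over the 3 groups together, the F-test called 8 of the 10 genes, all but Ctsh and Ctsz, against 69.3% of all genes. The counts at day 4 and day 7 against untreated are thus to be read against a background in which most genes differed.

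Markers of other cells moved with the groups as well. Their counts stand against 41.8% of all genes higher and 21.4% lower at day 4, and 32.1% and 22% at day 7. Of 14 fibroblast markers 13 were called higher at day 4 and 10 at day 7, with medians of 1.28 and 0.69, and Thy1, which thymocytes also express, was the 1 called lower, by differences of -2.61 and -1.37 (named after its values were seen). Array means of the fibroblast list spanned 9.75 to 10.25 in untreated, 10.85 to 11.41 at day 4 and 10.498 to 10.82 at day 7. Ctsk, Ctsf, Lgmn, Ctsb and Ctso had the same order, as did array means of the lysosomal hydrolase and sorting lists described below. All 15 thymocyte genes were lower at both times, and the 7 tested macrophage markers had 1 higher and 4 lower at day 4, and likewise at day 7. Medullary epithelial markers, like Ctsc and Ctsh, were lower at day 7 (8 of 8 tested, and 5 of 8 at day 4), and 5 of 6 neutrophil markers were lower at both times. Cortical epithelial markers had 6 of 10 higher at day 4 and 8 of 10 at day 7, mesothelial markers 4 of 5 higher at each time, and general epithelial markers 6 higher and 1 lower of 11 at day 4 and 5 higher and 4 lower at day 7. Pericyte and smooth muscle markers had 3 higher and 3 lower of 8 at day 4 and 3 higher at day 7. Of the dendritic and B cell lists 2 genes each were bright enough to test, with array means of 2.83 to 3.19 and 3.77 to 4.25 over all arrays. The part of these markers in the protease differences was not tested. After each array was centred on the mean of the fibroblast list, a scaling added after seeing the data, only Ctsk and Ctsf were called higher at day 4 (1.85, adjusted p 8.77e-08, and 1.21, adjusted p 1e-04), while Lgmn gave 0.33 (adjusted p 0.256) and Ctsb -0.12 (adjusted p 0.68). Under the same scaling Ctsk alone was called higher at day 7 (1.07, adjusted p 0.000582), and the median of all genes moved by -1.11 at day 4 and by -0.72 at day 7.

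**Figure D3:**
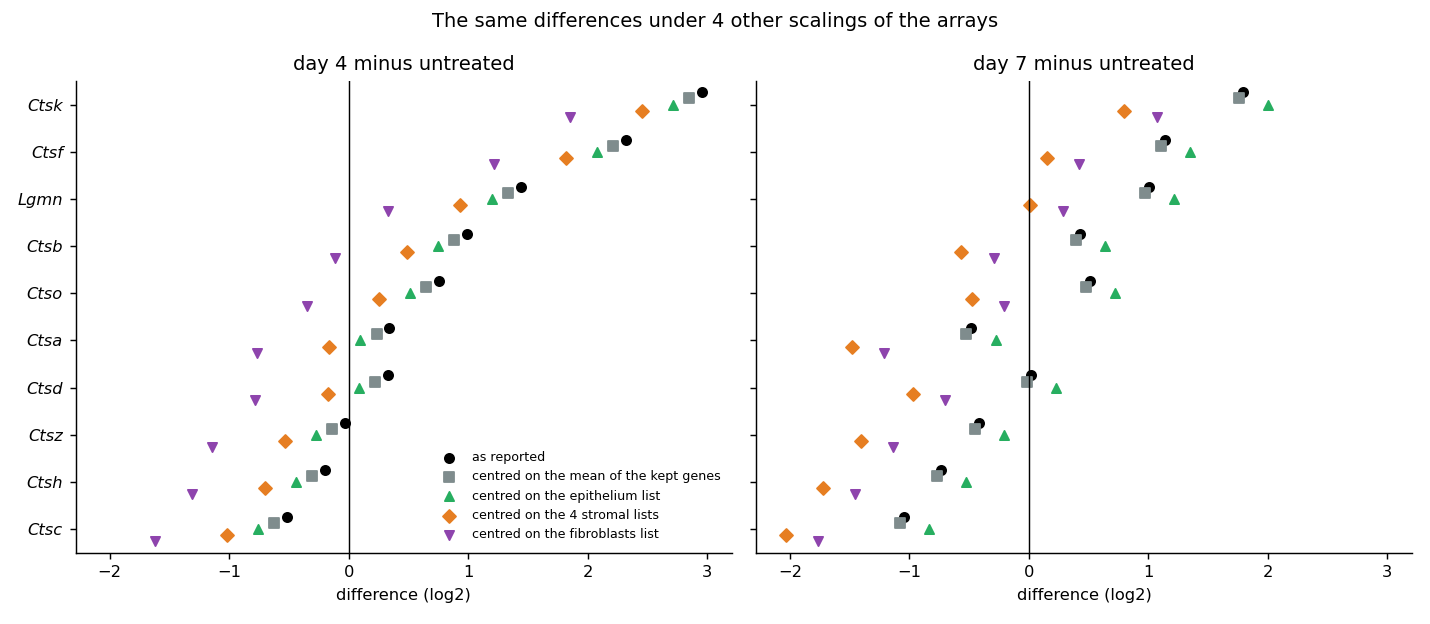
Differences in log2 value of the 10 genes at day 4 and day 7 against untreated, as reported and under 4 other scalings, each of which centres the arrays on a set of genes. Ctsk stays above 0 under each scaling, from 1.85 to 2.96 at day 4, while Ctsa, Ctsb, Ctsd and Ctso lie on both sides of 0 at day 4.

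The partners of these proteases in the lysosome were compared next, in values as deposited. Over all tested genes 41.8% were called higher and 21.4% lower at day 4, and 32.1% and 22% at day 7. The day 4 medians of the hydrolase, peptidase, membrane, pump and sorting lists, all above 0 as deposited, were -0.27, -0.77, -0.64, -0.81 and -0.67 when the arrays were centred on the fibroblast list. Centred on 4 stromal lists, they were 0.33, -0.17, -0.04, -0.20 and -0.06, and at day 7 all these medians lay below 0 under both scalings. Centring moves every gene by the same amount. With the fibroblast list the median of all genes was -0.91 at day 4 and -0.63 at day 7. With the stromal lists it was -0.31 and -0.90. At day 4 all 5 list medians thus stayed above that of all genes under both scalings. Of 25 tested glycosidases, sulfatases and lipid hydrolases of the lysosome, 18 rose and 2 fell at day 4 (median 0.84), and 14 rose and 5 fell at day 7 (median 0.37). Among them Gaa, which breaks down lysosomal glycogen, differed by 1.44 at day 4 (adjusted p 1.54e-05) and by 1.004 at day 7, and Galc, a galactosylceramidase, by 1.06 and 0.54. Acp5, the tartrate-resistant acid phosphatase, fell, with differences of -2.69 at day 4 (adjusted p 9.23e-07) and -2.43 at day 7. Of 8 other lysosomal peptidases and activator proteins, 5 rose and 0 fell at day 4 (median 0.34), and 3 rose at day 7. These included Dpp7, a dipeptidyl peptidase, at 2.02 and 0.83, Tpp1, a tripeptidyl peptidase, at 1.21 and 0.43, and the carboxypeptidase gene Scpep1 at 1.20 and 0.61. Between day 7 and day 4, 16 of the 25 hydrolases and 4 of the 8 peptidases and activators were lower and 0 of either list were higher. Of all genes 17.6% were lower and 9.78% higher. The 2 list medians, -0.43 and -0.39 as deposited, were 0.02 and 0.06 after centring on the epithelium list, where that of all genes was 0.35. They were -0.92 and -0.88 with the stromal lists (all genes -0.59), -0.36 and -0.32 with the kept genes (-0.03), and -0.04 and -0.003 with the fibroblast list (0.29).

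Membrane, acidification and sorting genes were described in the same way. Their counts stand against 41.8% of all genes higher and 21.4% lower at day 4, and 32.1% and 22% at day 7. At day 7 the pump and sorting lists had a smaller share called higher than all genes. Of 14 lysosomal membrane proteins 8 rose and 1 fell at day 4 (median 0.47), with Ctns, a cystine transporter, at 0.84 and Lamp1 at 0.65, and with Laptm5, a protein of blood cell lysosomes, at -2.43. At day 7 the counts were 5 higher and 3 lower. Of 15 subunits and accessory proteins of the vacuolar proton pump, 8 rose and 1 fell at day 4 (median 0.30), Atp6v0b differing by 0.66, Atp6v1g1 by 0.61 and Atp6v0a2 by -0.72, and at day 7 there were 3 in each direction. Of 10 genes of mannose 6-phosphate and sortilin sorting, which carries the new enzymes to the lysosome, 8 rose at day 4 (median 0.44) and 2 at day 7, with Sort1 at 1.06, Gnptg at 0.81 and Gga2 at 0.76 at day 4. Of 4 transcription factor genes listed for the lysosome, Tfeb and Tfec were too dim to test. Mitf rose by 1.33 at day 4 and 0.96 at day 7, and Tfe3 by 1.03 and 0.84. Whether either factor binds the windows shown above was not tested. The median of Mitf and Tfe3, 1.18 at day 4 and 0.90 at day 7 as deposited, was 0.07 and 0.18 after centring on the fibroblast list and 0.68 and -0.09 after centring on the stromal lists. The median of all genes was -0.91 and -0.63 under the first of these scalings and -0.31 and -0.90 under the second.

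**Figure D4:**
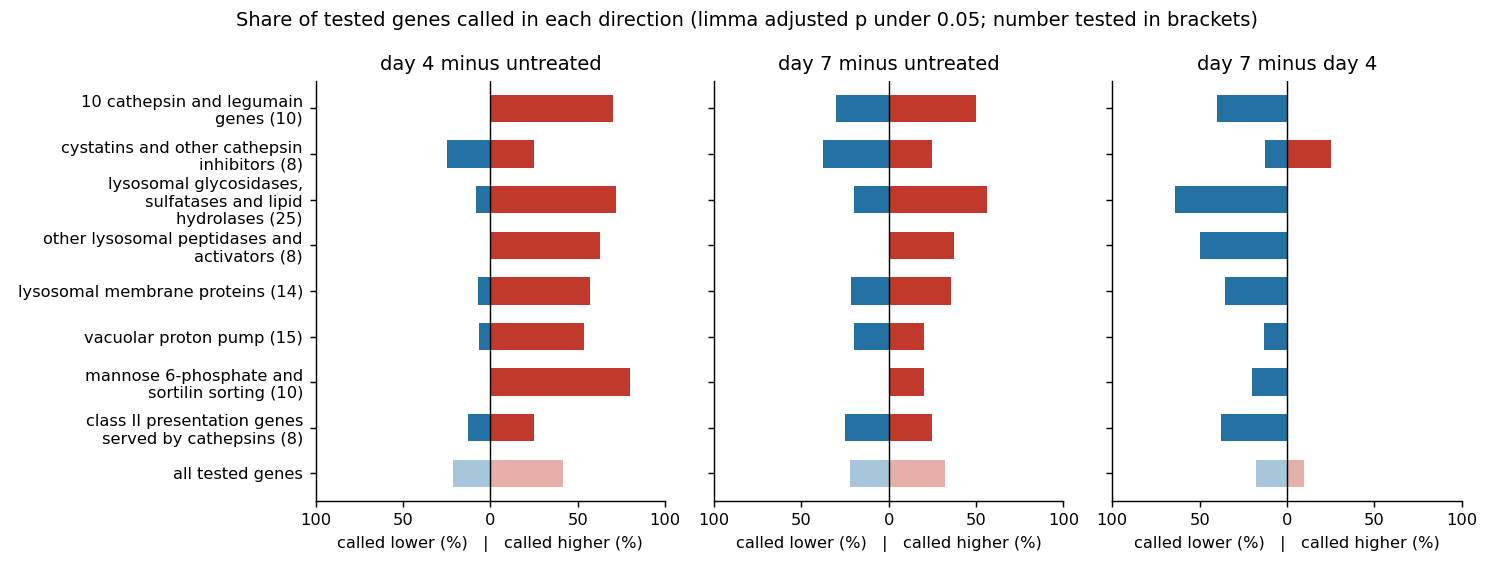
Share of tested genes called lower (left of 0) and higher (right of 0) at limma adjusted p under 0.05 for the 10 genes, 7 related lists and all tested genes. At day 4 the 10 genes and the hydrolases have 7 of 10 and 18 of 25 called higher, against 41.8% of all genes. The lists were chosen with earlier results of these data known.

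Inhibitors and the other cathepsins were described next. Of all genes 41.8% were called higher and 21.4% lower at day 4, and 32.1% and 22% at day 7. Of 8 tested cystatins and other cathepsin inhibitors 2 rose and 2 fell at day 4, and 2 rose and 3 fell at day 7. Ctla2a and Ctla2b, which resemble the propeptide of cathepsins, differed by 2.31 and 2.301 at day 7 (adjusted p 0.00106 and 0.00167) and by 0.75 and 0.56 at day 4, where neither passed. In the same samples 12 of 12 tested endothelial markers were called higher at day 7 and 4 at day 4, and their part in the inhibitor values was not tested. Stfa3, a stefin, averaged 5.29 in untreated and was below the detection level on all day 4 and day 7 arrays. Among the 3 other cathepsins bright enough to test, Ctss, which degrades the invariant chain in antigen-presenting cells, averaged 10.07 in untreated, 9.24 at day 4 and 8.10 at day 7 (differences -0.83, adjusted p 0.0119, and -1.97, adjusted p 0.000201). The group means of Ctss, highest in untreated and lowest at day 7, had the same order as those of Ctsc, Ctsh and Ctsz. Ctse differed by -0.83 and -0.69. Ctsl, the cathepsin of cortical epithelium that shapes the peptides seen by CD4 T cells, averaged 14.41, 14.41 and 14.58, with no call at either time (adjusted p 0.959 and 0.0827).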

How the data were processed

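RNA of CD45-depleted thymus cells from untreated mice and from mice at day 4 and day 7 was measured on 9 arrays, 3 per group. The authors deposited log2 values, for which the submitters' processing notes name GCRMA. That the log has base 2 is inferred from their range, and no other setting is stated. Of 45101 probe sets 34945 named 1 gene symbol, 932 several and 9160 none, with 64 control probe sets, and 34741 matched a RefSeq gene by identifier. Each gene was represented by its brightest probe set on average. Genes reading at least 4 on at least 3 arrays were kept, which left 10937 and dropped 7256. Differences were tested with limma 3.58.1 in R 4.3.3 (lmFit and eBayes, all 9 arrays in one fit), with Benjamini-Hochberg adjustment over these genes at 0.05, and the fit was tested on simulated data. A call in the text means an adjusted p under 0.05, and a second probe set of a gene was tested in a fit over all bright probe sets.

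The 10 genes and the 22 lists of related genes and markers were chosen with earlier results of these data known. From each related list up to 3 tested genes with the smallest F-test p were eligible to be named. From marker lists the brightest tested genes on average and those undetected on every array were eligible, and only some of these are named. Other genes named are said to be chosen after their values were seen. The 22 alternatives covered the filter, probe set choice, variance settings, groups fitted, normalization, centring on gene sets (all kept genes, epithelium, fibroblasts, or 4 stromal lists: epithelium, fibroblasts, endothelium, and pericytes with smooth muscle) and leaving out each array. Arrays give no count of molecules, so the number of arrays limits the precision.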

Additional observations from a re-analysis of the deposited data

Results flagged for a closer look

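For 4 of the 10 genes, against 27.3% of all tested genes, the response at day 7 differed from that at day 4 in a test of the difference itself (limma). The difference of day 7 minus day 4 was -1.18 for Ctsf (adjusted p 0.00187), -1.17 for Ctsk (adjusted p 0.00644), -0.83 for Ctsa (adjusted p 0.000993) and -0.57 for Ctsb (adjusted p 0.0145). The 3 arrays of day 7 lay below the 3 of day 4 for each of these genes. Ctsa differs from the others in that its day 7 values were also below untreated. Ctsf and Ctsk kept these calls under all 22 alternatives, whereas Ctsa and Ctsb lost theirs after centring on the epithelium list (-0.38, adjusted p 0.153, and -0.11, adjusted p 0.689) or on the fibroblast list (-0.44, adjusted p 0.265, and -0.18, adjusted p 0.653). Ctsb also lost its call when its probe sets were averaged (-0.37, adjusted p 0.0545), an average that includes a probe set below the detection level on every array.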

How the results depend on the processing

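Under all 22 alternatives, Ctsk and Ctsf kept their calls at day 4 (1.85 to 3.20 and 1.16 to 2.52) and for day 7 against day 4 (-1.66 to -0.72 and -1.67 to -0.59), and Ctsk (0.80 to 2.09) and Ctsc (-2.04 to -0.75) kept theirs at day 7. The counts of the 10 genes depended on the settings of the fit, the probe set choice and the scaling. At day 4, 1 of them was called lower with the mean of all probe sets, array weights, the replicate block (Ctsc, -0.51, adjusted p 0.0335), centring on the kept genes or centring on the epithelium list. Between day 7 and day 4, array weights called 10 of them lower (2992 of all genes), fits of the compared groups alone 7, and no filter gave 1280 genes lower. Centring on the epithelium list gave 2228 genes higher at day 4, 1188 lower at day 7 with 1 of the 10, and for day 7 against day 4 2196 higher and 320 lower with 2 of the 10. Centring on 4 stromal lists gave 1552 higher and 4182 lower at day 4 (4 and 2 of the 10), 354 and 8485 at day 7 (1 and 7), and 425 and 7175 between day 7 and day 4 (10 lower). Centring on the fibroblast list, added after seeing the data, gave 367 higher and 7506 lower at day 4 (2 and 5), 486 and 5674 at day 7 (1 and 5), and 248 lower between day 7 and day 4 (2).

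The share of called genes that were higher was 66.1% at day 4, 59.3% at day 7 and 35.8% between day 7 and day 4 as deposited. It was 48.3%, 75.1% and 87.3% after epithelium centring, 27.1%, 4% and 5.59% after stromal centring, 4.66%, 7.89% and 82.8% after fibroblast centring, and 47.5% between day 7 and day 4 with centring on the kept genes. Signs turned as follows. With the mean of probe sets Ctsz was 0.015 at day 4, and with the kept genes Ctsd was -0.016 at day 7. With epithelium, day 7 minus day 4 was 0.14 for Ctsd, 0.21 for Ctso, 0.069 for Ctsz and 0.017 for Lgmn. With the stromal lists Ctsa was -0.16 and Ctsd -0.17 at day 4, and Ctsb -0.57, Ctsd -0.97 and Ctso -0.48 at day 7. With fibroblasts Ctsa was -0.77, Ctsb -0.12, Ctsd -0.78 and Ctso -0.35 at day 4, Ctsb -0.30, Ctsd -0.70 and Ctso -0.21 at day 7, and Ctsd 0.078, Ctso 0.14 and Ctsz 0.0035 for day 7 minus day 4. Leaving out each array gave -0.20 to 0.12 for Ctsz and -0.53 to 0.027 for Ctsh at day 4, and -0.025 to 0.046 for Ctsd at day 7. The cause of these changes is the centring itself where each gene moves by the same amount, and otherwise was not tested.

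Leaving out each array gave, at day 4, 4096 to 4604 genes higher and 1988 to 2372 lower, with 5 to 7 and 0 to 2 of the 10. At day 7 it gave 2845 to 3696 and 1908 to 2463, with 4 to 5 and 2 to 4. Between day 7 and day 4 it gave 750 to 1214 and 1010 to 2273, with 0 and 4 to 6, and the F-test called 7 to 10 of the 10. Genes near the detection level, such as Ctsf in untreated, are measured least well. The labels do not say whether same-numbered arrays of different groups share more than a number. Their deviations correlated at -0.12 to 0.18 (3 of 9 pairs over 0.1). Those of different-numbered arrays correlated at -0.29 to 0.21 (2 of 18 pairs over 0.1). Of 9 arrays 5 correlated best with their own number. With so few arrays these values can neither show nor exclude a pairing. The replicate block gave 4407 higher and 2262 lower genes at day 4 and 3287 and 2301 at day 7. Between day 7 and day 4 it gave 949 and 1665.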

Other observations

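Class II presentation genes, whose products are cut or loaded with the help of cathepsins, moved in both directions. Of 8 tested, 2 rose and 1 fell at day 4, and 2 rose and 2 fell at day 7. Of all genes 41.8% rose and 21.4% fell at day 4, and 32.1% and 22% at day 7. Ciita, the master regulator of class II genes, differed by 1.004 at day 4 (adjusted p 8.75e-05) and by 0.62 at day 7, and H2-DMa, a subunit of the peptide-loading factor, by 0.74 and 0.69. H2-Ob, a subunit of its inhibitor, differed by -0.79 (adjusted p 0.0158) and -1.79 (adjusted p 0.000336). Among 9 granule proteases activated by cathepsin C only Gzma, granzyme A, was bright enough to test, and it averaged 8.73 in untreated, 3.95 at day 4 and 7.01 at day 7.

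The partners of Ctsa in its complex were looked up after their values were seen. Neu1, the sialidase, averaged 5.56 in untreated, 5.08 at day 4 and 4.50 at day 7, with differences of -0.48 (adjusted p 0.038) and -1.06 (adjusted p 0.0011). Glb1, the galactosidase, averaged 6.76, 6.90 and 6.48 in the same groups, and neither difference from untreated passed (adjusted p 0.415 and 0.146).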
